A study of Homo sapiens with 6 samples.

Results

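The deposited table of Rh30 cells holds only the 1273 genes that the authors had called changed. Shares of the table given below are thus shares of genes already called changed. The list described here holds 120 of these 1273 genes. They were chosen by their own values: the FPKM in PANX1 replicate 1 and in PANX1 replicate 2 each had to reach at least 2 times the mean of the 3 GFP libraries, and that mean had to be above 0. PANX1 replicate 3 was not used in the choice. FPKM counts the sequenced fragments of a gene per length of its transcript and per total of mapped fragments. In all, 138 genes met the ratio, and 18 of them were left out by name. Of these, 13 belonged to name families such as ribosomal proteins, NADH dehydrogenase subunits and solute carriers, and the other 5 were MMP2, CASP2, ISG15, PARP10 and HSPB1. MMP2, a matrix metalloproteinase, had ratios of 8.06, 7.83 and 11.0 in PANX1 replicates 1 to 3, and its smaller ratio was above that of any gene kept. CASP2, a caspase, had ratios of 6.76, 4.92 and 5.67. Each of the 120 genes was therefore higher in PANX1 replicates 1 and 2 than the GFP mean because of how it was picked, and these 2 libraries are described below without a test.

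Rh30 is an established human line from alveolar rhabdomyosarcoma, a tumour of cells that resemble developing skeletal muscle. There were 3 libraries from stable Rh30 cells with an inducible PANX1 construct and 3 from the vector control, called GFP. Cells of both groups carried the CymR repressor, expressed GFP constitutively and had received 30 µg/mL cumate for 48 h, so that cumate and GFP were shared and the constructs differed by the PANX1 insert. The groups were different stable cells, and the labels number the cultures of GFP 1 to 3 and those of PANX1 2 to 4, so effects of line or culture cannot be told apart from that of the insert. PANX1 came from a cDNA insert, and its reads cannot be told apart from those of the gene in the genome. The methods call the libraries biological replicates, without saying whether each group was 1 line or several. Of 24 muscle and rhabdomyosarcoma marker genes, 7 were in the table and none had a value of 0, with a summed FPKM of 411 to 623 in GFP and 740 to 1386 in PANX1 libraries. DES, which encodes the muscle filament desmin, was at 214, 277 and 354 FPKM in GFP and at 384, 427 and 571 FPKM in PANX1 replicates 1 to 3. The sum was mostly DES and TNNT1, and the 7 markers did not move together. Every PANX1 library was above every GFP library for CDH15, TNNT1, DES and FGFR4, and below every GFP library for MYH8, LMOD3 and KLHL31. The means of GFP and PANX1 were 0.626 and 0.135 FPKM for MYH8, 1.56 and 0.594 FPKM for LMOD3 and 3.53 and 1.41 FPKM for KLHL31. Of 5 immune markers the table held CD68, at 0.416 to 1.08 FPKM in GFP and 1.37 to 2.40 FPKM in PANX1 libraries, and of 5 nervous tissue markers it held TUBB3, at 21.4 to 27.9 and 34.5 to 98.7 FPKM. Markers of fibroblasts, epithelium and endothelium were not among its genes. A marker missing from this table of changed genes may still be expressed. The part of other cell types in the results was not tested. In bulk libraries a change in the number of cells that express a gene and a change in RNA per cell cannot be told apart.

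Pannexins form large-pore channels in the plasma membrane that release ATP and other small molecules, and PANX1 is the most widely expressed of them. Connexins, a separate family, build gap junctions that join the cytoplasm of neighbouring cells, and GJA1 encodes connexin 43, the member with the widest distribution. In skeletal muscle both families are active while myoblasts differentiate and fuse. Both PANX1 and GJA1 were on the list.

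Promoter sequences were available from RefSeq on GRCh38.p14 for 80 of the 120 genes. Those of 6 genes are shown because they lie at the ends of the pattern described later. CAMK4, GJA1 and IL1R1 had the lowest ratio of PANX1 replicate 3 to the mean of replicates 1 and 2, and TRAPPC5, MIB2 and C19orf24 the highest, among the genes with a promoter. Each runs from 250 bases before to 50 bases after the annotated start, 5′ to 3′ on the strand of the gene, which is the plus strand for these 6. The windows are chr5:111223333-111223632 for CAMK4, chr6:121435396-121435695 for GJA1, chr2:102104354-102104653 for IL1R1, chr19:7680583-7680882 for TRAPPC5, chr1:1615250-1615549 for MIB2 and chr19:1275280-1275579 for C19orf24. Capitals mark GGGCGG (the GC box), TATAAA (the TATA box), CCAAT and CACGTG (the E-box), searched on both strands.
CAMK4: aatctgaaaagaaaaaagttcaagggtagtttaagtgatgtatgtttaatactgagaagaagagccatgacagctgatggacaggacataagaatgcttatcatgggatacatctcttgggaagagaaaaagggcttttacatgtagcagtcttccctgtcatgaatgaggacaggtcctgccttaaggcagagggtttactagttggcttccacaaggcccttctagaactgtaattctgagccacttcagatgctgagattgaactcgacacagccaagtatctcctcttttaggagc
GJA1: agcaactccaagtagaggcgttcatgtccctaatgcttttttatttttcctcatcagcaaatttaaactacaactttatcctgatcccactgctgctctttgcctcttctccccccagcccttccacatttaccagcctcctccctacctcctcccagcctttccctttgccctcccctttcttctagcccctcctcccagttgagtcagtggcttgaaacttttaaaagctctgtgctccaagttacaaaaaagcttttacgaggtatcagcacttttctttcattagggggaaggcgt
IL1R1: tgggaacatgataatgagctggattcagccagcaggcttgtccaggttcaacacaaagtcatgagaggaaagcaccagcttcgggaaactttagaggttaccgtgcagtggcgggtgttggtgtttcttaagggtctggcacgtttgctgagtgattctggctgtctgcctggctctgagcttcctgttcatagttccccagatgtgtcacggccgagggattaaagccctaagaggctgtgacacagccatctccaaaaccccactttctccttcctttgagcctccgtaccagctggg
TRAPPC5: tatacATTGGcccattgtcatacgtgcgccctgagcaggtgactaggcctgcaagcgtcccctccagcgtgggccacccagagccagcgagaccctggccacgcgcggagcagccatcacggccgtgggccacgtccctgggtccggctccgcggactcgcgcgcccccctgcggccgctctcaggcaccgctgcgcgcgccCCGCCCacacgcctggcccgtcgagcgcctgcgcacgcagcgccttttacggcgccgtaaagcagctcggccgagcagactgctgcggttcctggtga
MIB2: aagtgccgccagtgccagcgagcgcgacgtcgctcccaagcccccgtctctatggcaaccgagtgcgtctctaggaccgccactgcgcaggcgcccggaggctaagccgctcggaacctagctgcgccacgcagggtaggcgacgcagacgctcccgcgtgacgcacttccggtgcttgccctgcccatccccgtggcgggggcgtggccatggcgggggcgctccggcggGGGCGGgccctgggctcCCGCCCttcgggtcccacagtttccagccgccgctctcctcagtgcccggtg
C19orf24: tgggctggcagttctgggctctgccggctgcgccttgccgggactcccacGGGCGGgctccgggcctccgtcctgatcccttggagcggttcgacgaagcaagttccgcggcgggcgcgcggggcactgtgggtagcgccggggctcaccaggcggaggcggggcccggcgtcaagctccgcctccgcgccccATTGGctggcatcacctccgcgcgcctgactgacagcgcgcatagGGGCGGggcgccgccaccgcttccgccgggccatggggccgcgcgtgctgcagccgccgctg

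None of these 4 motifs was found in the CAMK4, GJA1 and IL1R1 windows, whose GC content was 42.7%, 47.0% and 52.7%. The TRAPPC5 window held GGGCGG 1 time and CCAAT 1 time, the MIB2 window GGGCGG 2 times, and the C19orf24 window GGGCGG 2 times and CCAAT 1 time, with a GC content of 71.7%, 73.3% and 76.3%. Over the 80 genes with a promoter, 73.8% held GGGCGG, against 74.7% of the 1018 promoters matched to the table and 44.6% of 27305 RefSeq promoters. TATAAA was in 7.50%, 4.91% and 12.0% of the same sets, CCAAT in 26.3%, 35.6% and 35.7%, and CACGTG in 8.75%, 11.1% and 7.43%. The promoters of the list and of the table thus held the GC box at about the same share. A match describes letters in the window and not a bound site. Only the first listed promoter of each symbol was used, and it was not checked against the start of the measured locus. A window may therefore lie at another start of its gene than the one expressed in these cells.

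PANX1 (XLOC_003765, chromosome 11 of hg19, 93862094 to 93915137) had 37.8, 35.3 and 28.1 FPKM in GFP replicates 1 to 3 and 124, 184 and 123 FPKM in PANX1 replicates 1 to 3. It had the highest GFP mean of the list, 33.7 ± 5.02 FPKM (SD, n = 3), and its PANX1 mean was 144 ± 35.2 FPKM (SD, n = 3). Its lowest PANX1 value was above its highest GFP value, as in 119 of the 120 genes of the list. PANX1 replicates 1 and 3 were nearly equal. GJA1 (XLOC_018474, chromosome 6, 121756745 to 121770873) was a low gene, at 0.163, 0.156 and 0.300 FPKM in GFP and at 0.728, 0.661 and 0.331 FPKM in PANX1 replicates 1 to 3. Replicates 1 and 2 lay at 3.53 and 3.20 times the GFP mean and replicate 3 at 1.60 times, the lowest replicate 3 ratio on the list. The value of PANX1 replicate 3 was just above that of GFP replicate 3. The remaining gene of these families in the table, GJC1, which encodes connexin 45, was not on the list. It had 32.4, 30.8 and 27.9 FPKM in GFP and 21.7, 20.7 and 15.1 FPKM in PANX1 libraries, so that its levels lay far above those of GJA1 and in the opposite direction.

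**Figure D1:**
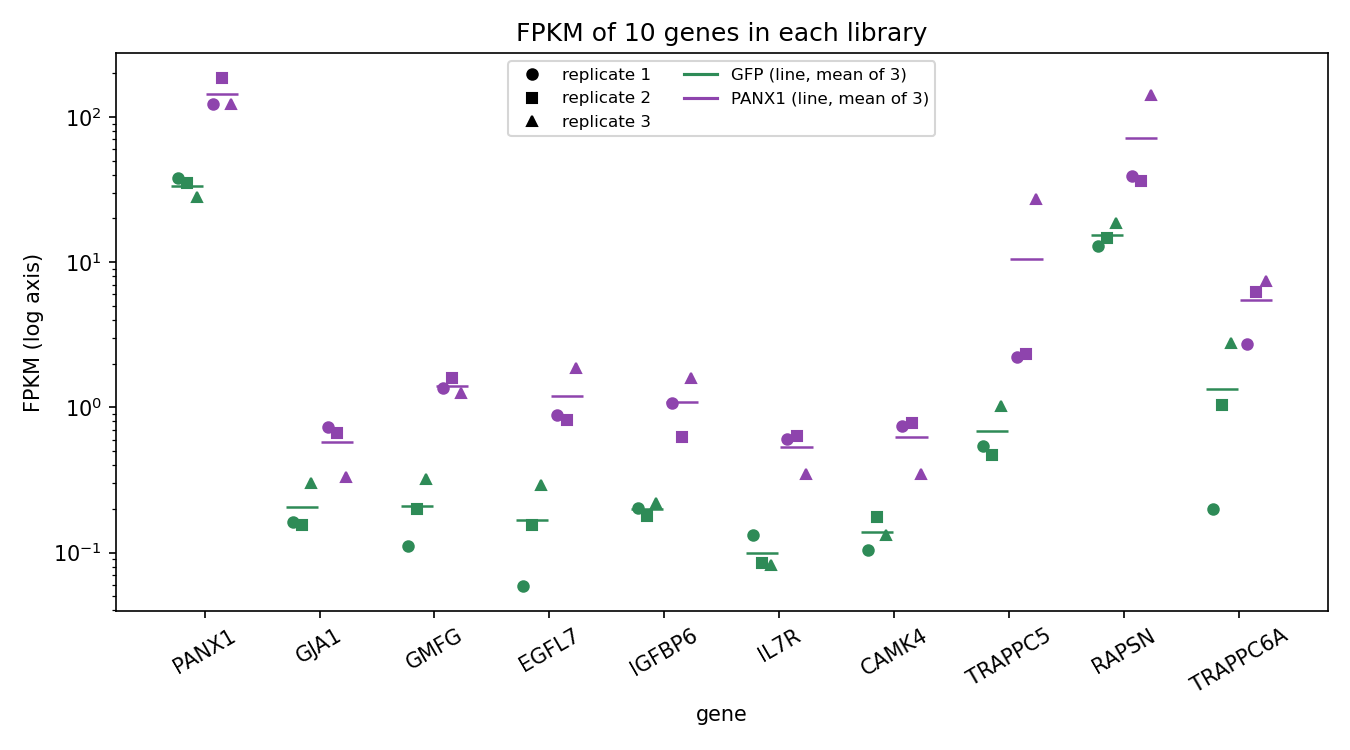
FPKM on a log axis of 10 genes of the list in each of the 6 libraries, with circles, squares and triangles for replicates 1, 2 and 3, green for GFP and purple for PANX1, and a line at each mean of 3. The PANX1 triangle lies below the other PANX1 points for GJA1, IL7R and CAMK4 and far above them for TRAPPC5 (27.2 FPKM) and RAPSN (141 FPKM), and TRAPPC6A shows overlapping groups.

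Most of the list was expressed at low levels. The GFP mean was below 1 FPKM in 68 genes (56.7%), against 15.8% of the table's genes with a GFP mean above 0, and it was at least 10 FPKM in 8. The median GFP mean was 0.719 FPKM on the list and 5.71 FPKM in the table. The ratio to the GFP mean had a median of 2.55 in PANX1 replicate 1 and 2.51 in replicate 2, and the smaller of both was under 2.5 in 77 genes, at least 3 in 21 and at least 4 in 6. Replicate 1 was the higher of both in 67 genes. The genes just inside the limit were GAMT, STUB1 and FBXW5, with a smaller ratio of 2.00, 2.00 and 2.01. Those just outside were MVB12A, QTRT1 and FBXL14, at 1.99 each. In replicate 3 the ratio was 4.70, 7.21 and 7.92 for the first 3 genes and 4.60, 7.92 and 6.72 for the others, so values on either side of the limit were alike.

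GMFG (XLOC_011662), which encodes an actin-branch remodelling factor best known from blood cells, had the largest smaller ratio of the list. It was at 0.112, 0.198 and 0.323 FPKM in GFP and 1.37, 1.60 and 1.25 FPKM in PANX1 replicates 1 to 3. All of its PANX1 values were more than 3 times its highest GFP value. EGFL7, a secreted factor of blood vessel growth, was at 0.0592, 0.154 and 0.294 FPKM in GFP and 0.893, 0.816 and 1.88 FPKM in PANX1 libraries. PALM, a lipid-anchored protein of the plasma membrane, was at 0.149, 0.265 and 0.321 FPKM and 0.934, 0.919 and 2.01 FPKM. In both of these genes GFP replicate 1 was the lowest library and PANX1 replicate 3 the highest. TSPAN4, a tetraspanin, was at 2.50, 2.65 and 3.98 FPKM in GFP and 8.82, 9.25 and 31.9 FPKM in PANX1 libraries. APBA3, an adaptor that binds the amyloid precursor protein, was at 0.517, 0.741 and 0.756 FPKM and 2.24, 1.97 and 7.03 FPKM. The groups of both did not overlap, as in 119 of the 120 genes of the list. In the table, 82.0% of genes had every PANX1 library above every GFP library. For TSPAN4 and APBA3, replicate 3 was more than 3 times either of the other PANX1 libraries.

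The genes with the highest GFP means after PANX1 were LAMTOR4, C12orf57, RAPSN and RARRES2. LAMTOR4, a subunit of the Ragulator complex on lysosomes, was at 13.2, 15.8 and 22.9 FPKM in GFP and 42.9, 36.1 and 123 FPKM in PANX1 libraries. C12orf57 was at 11.8, 16.0 and 21.5 FPKM and 34.9, 54.4 and 186 FPKM. RAPSN, which anchors acetylcholine receptors at the neuromuscular junction, was at 12.9, 14.6 and 18.7 FPKM and 39.5, 36.1 and 141 FPKM. In these 3 genes GFP replicate 1 was the lowest library, and PANX1 replicate 3 was the highest of all. RARRES2, which encodes the chemoattractant chemerin, had tighter GFP values of 15.2, 14.6 and 16.1 FPKM and PANX1 values of 31.0, 32.9 and 93.6 FPKM.

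In all, 60 genes of the list fell into 1 or more of 14 lists of gene roles, and the other 60 into none. As a background, the 120 genes are 9.43% of the table. The rule required at least 2 times the GFP mean in PANX1 replicates 1 and 2. Higher medians of members than of their whole role list in these libraries therefore come from the choice, and nothing is read from them. Replicate 3 shares the GFP mean with the choice, and each role list includes its members. Among 14 secreted signals, 4 were on the list: IGFBP6, which binds insulin-like growth factors, the ephrin EFNB3, the growth factor FGF1 and EDN1, which encodes the vasoconstrictor endothelin 1. The median log2 ratios of the 4 were 2.15, 1.68 and 2.29 in PANX1 replicates 1 to 3, against 0.75, 0.72 and 1.71 for the 14. IGFBP6 was at 0.203, 0.179 and 0.219 FPKM in GFP and 1.08, 0.621 and 1.59 FPKM in PANX1 libraries. EDN1 was at 0.117, 0.124 and 0.137 FPKM and 0.462, 0.418 and 0.362 FPKM. Neither gene's groups overlapped, as in 119 of the 120 genes of the list. IGFBP6 was highest in PANX1 replicate 3, where EDN1 had its lowest PANX1 value. FGF1 was at 0.0903, 0.0174 and 0.0982 FPKM and 0.399, 0.211 and 0.671 FPKM, and EFNB3 at 0.136, 0.0892 and 0.143 FPKM and 0.366, 0.741 and 0.369 FPKM. EFNB3 thus stood highest in PANX1 replicate 2 and was almost equal in the other PANX1 libraries.

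Of 34 cell surface receptors in the table, 4 were on the list, with median log2 ratios of 1.56, 1.87 and 1.75 in PANX1 replicates 1 to 3, against 0.79, 0.73 and 1.79 for the 34. IL7R, the interleukin 7 receptor of lymphocytes, was at 0.132, 0.0853 and 0.0820 FPKM in GFP and 0.607, 0.637 and 0.349 FPKM in PANX1 libraries. IL1R1, the signalling receptor of interleukin 1, was at 0.0948, 0.0442 and 0.0884 FPKM and 0.244, 0.341 and 0.153 FPKM. In both genes PANX1 replicate 3 was the lowest PANX1 library but above every GFP library. CD320, the receptor for vitamin B12 bound to transcobalamin, was at 2.61, 4.36 and 4.48 FPKM and 9.55, 8.22 and 28.5 FPKM. PLXNA3, a semaphorin receptor, was at 0.0915, 0.0642 and 0.193 FPKM and 0.315, 0.344 and 0.377 FPKM. Of 32 adhesion and matrix genes only COL2A1, a collagen of cartilage, was on the list, at 0.0278, 0.0895 and 0.0654 FPKM in GFP and 0.279, 0.210 and 0.278 FPKM in PANX1 libraries, with MMP2 left out by name.

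Transcription factors gave 6 genes of 36 in the table, with median log2 ratios of 1.48, 1.28 and 2.66 in PANX1 replicates 1 to 3, against 0.81, 0.55 and 1.96 for the 36. PITX3, a homeobox factor of lens and midbrain that is also active in muscle, was at 1.93, 2.70 and 2.86 FPKM in GFP and 8.94, 6.62 and 38.3 FPKM in PANX1 libraries. MEIS3 was at 1.62, 2.31 and 3.19 FPKM and 5.43, 5.98 and 10.9 FPKM, and HOXC13, known from hair and nail, at 0.215, 0.326 and 0.282 FPKM and 0.826, 0.987 and 0.703 FPKM. PAX2, a factor of kidney development, had close values within each group, 0.105, 0.107 and 0.122 FPKM in GFP and 0.287, 0.260 and 0.293 FPKM in PANX1 libraries. These homeobox and paired-box genes differed from each other in replicate 3, where PITX3 stood apart and HOXC13 had its lowest PANX1 value. The other factors of the list were ETV2 and GLI4. SIRT6, a deacetylase of histones, was the only member among 16 chromatin genes, at 1.08, 1.48 and 1.21 FPKM and 3.44, 2.54 and 11.6 FPKM.

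Kinases and phosphatases gave 5 genes of 60, with median log2 ratios of 1.52, 1.64 and 1.57 in PANX1 replicates 1 to 3, against 0.80, 0.59 and 1.77 for the 60. CAMK4, a calcium- and calmodulin-dependent kinase, was at 0.105, 0.177 and 0.132 FPKM in GFP and 0.749, 0.776 and 0.346 FPKM in PANX1 libraries. SBK2 was at 0.573, 0.299 and 0.495 FPKM and 1.77, 1.42 and 9.12 FPKM. PANX1 replicate 3 was below 0.5 times either of the other PANX1 libraries for CAMK4 and over 5 times either of them for SBK2. The kinases CDK18 and ADCK2 were lower genes, at 0.0465, 0.0821 and 0.168 FPKM in GFP and 0.236, 0.318 and 0.288 FPKM in PANX1 libraries for CDK18. ADCK2 was at 0.0435, 0.146 and 0.102 FPKM and 0.279, 0.287 and 0.564 FPKM.

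Channels, pumps and transporters outside the SLC family gave 5 genes of 23, with median log2 ratios of 1.52, 1.51 and 1.73 in replicates 1 to 3, against 0.89, 0.65 and 1.78 for the 23. ATP10A, a phospholipid flippase, was at 0.834, 0.522 and 0.860 FPKM in GFP and 2.14, 2.90 and 2.05 FPKM in PANX1 libraries. CACNG4, an auxiliary subunit of calcium channels and AMPA receptors, was at 0.941, 1.18 and 1.44 FPKM and 2.51, 3.13 and 2.64 FPKM. For these 2 genes PANX1 replicate 3 lay within or just below the other PANX1 libraries. TRPM2, a calcium-permeable channel that opens under oxidative stress, was at 0.303, 0.326 and 0.290 FPKM and 0.669, 0.681 and 3.26 FPKM. MFSD3 was at 0.225, 0.314 and 0.571 FPKM and 1.06, 1.45 and 2.55 FPKM, and KCNU1, a potassium channel known from sperm, at 0.135, 0.0507 and 0.137 FPKM and 0.327, 0.306 and 0.357 FPKM. TRPM2 had the tightest GFP values of these genes and one of the steepest steps at PANX1 replicate 3.

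The cytoskeleton gave 7 genes of 44, with median log2 ratios of 1.47, 1.26 and 2.74 in replicates 1 to 3, against 0.71, 0.61 and 1.89 for the 44. PDLIM2, a protein with PDZ and LIM domains, was at 0.352, 0.854 and 0.565 FPKM in GFP and 1.77, 1.42 and 3.94 FPKM in PANX1 libraries. The coronins CORO1B and CORO1A, the latter in an entry shared with LOC606724, and the copies WASH7P and WASH3P were also among the 7. The annotation held no protein-coding gene named WASH7P or WASH3P at these loci. The list was a name pattern, which did not match GMFG. WASH3P was at 0.566, 0.895 and 1.10 FPKM and 2.45, 2.04 and 8.91 FPKM.

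Metabolic enzymes gave 8 genes of 83, a share of 9.64%, close to that of the whole table. Their median log2 ratios were 1.38, 1.29 and 2.17, against 0.74, 0.69 and 1.81 for the 83. GGT1, which cleaves glutathione outside the cell, was at 0.157, 0.257 and 0.424 FPKM in GFP and 0.771, 0.685 and 2.18 FPKM in PANX1 libraries. GSTT2, a glutathione transferase, was at 0.233, 0.399 and 0.499 FPKM and 1.16, 1.08 and 4.34 FPKM. ACSL5, which activates long-chain fatty acids, was at 0.178, 0.123 and 0.179 FPKM and 0.417, 0.443 and 0.559 FPKM, and EBP, an enzyme of cholesterol synthesis, at 3.56, 2.58 and 3.43 FPKM and 9.66, 7.75 and 13.5 FPKM. GAMT, which makes creatine, was the most abundant of the 8, at 11.1, 14.8 and 17.3 FPKM and 31.1, 28.8 and 67.7 FPKM. The groups of these 5 enzymes did not overlap, and replicate 3 was the highest library of each. Neither trait is particular to them. Every PANX1 library lay above every GFP library in 119 of the 120 genes of the list and 82.0% of the table. Replicate 3 was the highest PANX1 library in 85.0% of the table. Cell death genes gave TP53I13 and GADD45GIP1, 2 of 21, with CASP2 left out by name. TP53I13, a gene induced by p53, was at 2.88, 3.56 and 4.87 FPKM and 8.29, 8.79 and 28.7 FPKM, and GADD45GIP1, which is also a mitochondrial ribosome protein, at 4.17, 5.76 and 5.29 FPKM and 15.9, 11.4 and 66.5 FPKM. None of 30 genes of DNA replication, repair and cell cycle was on the list. Their median log2 ratios in replicates 1 to 3 were 0.68, 0.39 and 1.59, against 0.77, 0.61 and 1.87 for the table.

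Names that stand for open reading frames or numbered families gave 13 genes of 104, with median log2 ratios of 1.22, 1.48 and 3.37 in replicates 1 to 3, against 0.82, 0.67 and 2.05 for the 104. C19orf24 was at 0.200, 0.775 and 0.894 FPKM in GFP and 2.56, 1.83 and 13.7 FPKM in PANX1 libraries. TMEM134 was at 1.36, 1.28 and 2.52 FPKM and 4.66, 4.89 and 17.8 FPKM, and TMEM86B, which hydrolyses lysoplasmalogen, at 0.393, 0.380 and 0.585 FPKM and 1.27, 1.26 and 3.36 FPKM. Names of noncoding RNAs were in 18 entries of the table, most of them joined with a protein-coding gene, so they are not described as a group, and 3 of the 18 entries were on the list. The small nucleolar RNA host SNHG9 was at 8.76, 12.4 and 14.6 FPKM and 26.6, 28.0 and 145 FPKM. The entry that joins AMH, which encodes anti-Müllerian hormone, with the microRNA MIR4321 was at 0.415, 0.180 and 0.190 FPKM and 0.922, 0.610 and 3.37 FPKM, so its value cannot be given to either gene. TMEM161B-AS1, an antisense RNA, was at 0.524, 0.558 and 1.16 FPKM and 1.62, 2.13 and 2.63 FPKM.

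The 60 genes outside these lists, which were drawn up as name patterns and so miss some genes of each role, had GFP means of up to 17.3 FPKM, that of LAMTOR4. Their ratio to the GFP mean ran from 2.01 to 6.48 in PANX1 replicate 1, from 2.00 to 7.61 in replicate 2 and from 1.77 to 39.8 in replicate 3, with medians of 2.36, 2.38 and 7.26. Replicate 3 was the highest PANX1 library in 55 of the 60. Of these genes, and named after their values were seen, TCEB2, the elongin B subunit of ubiquitin ligases, was at 11.0, 13.7 and 14.2 FPKM in GFP and 30.9, 26.1 and 161 FPKM in PANX1 libraries. MIF, a cytokine that inhibits macrophage migration, was at 6.77, 3.58 and 9.75 FPKM and 15.1, 14.4 and 84.2 FPKM. FKBP8, a mitochondrial chaperone that binds BCL2, was at 7.18, 8.59 and 11.6 FPKM and 22.3, 21.7 and 86.8 FPKM. All 3 had close PANX1 replicates 1 and 2 and a replicate 3 more than 3 times as high.

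**Figure D2:**
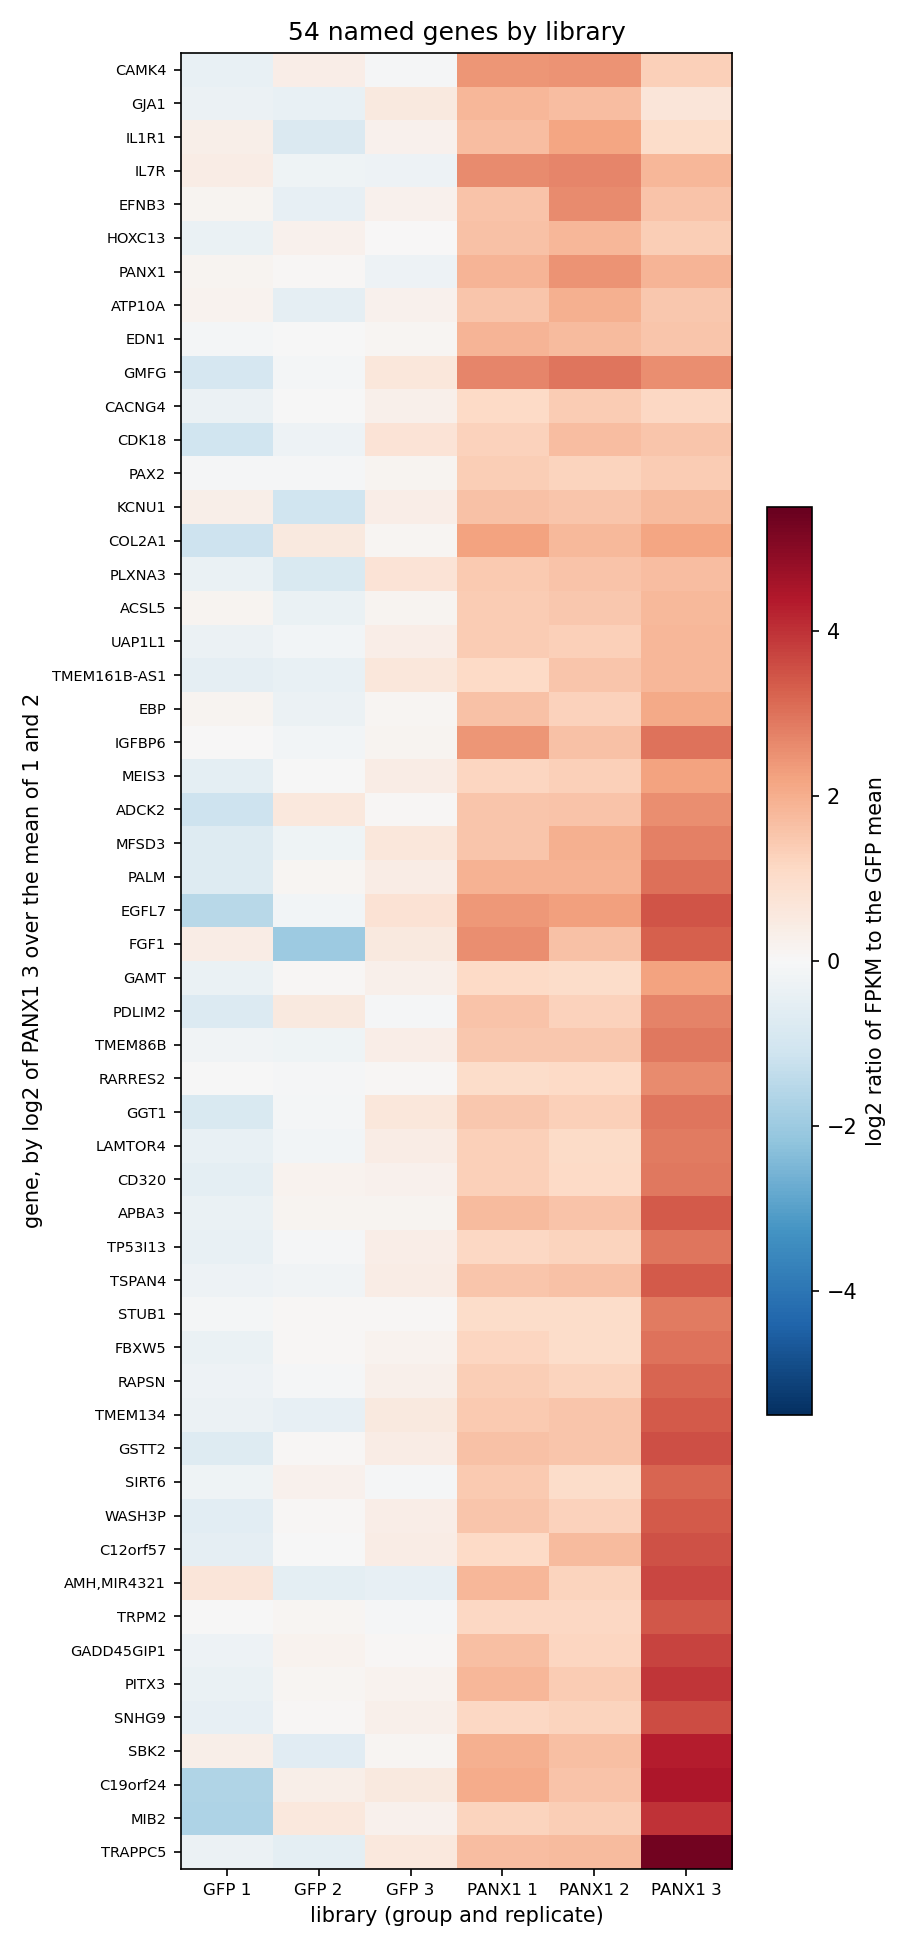
The log2 ratio of each library's FPKM to the GFP mean for 54 named genes of the list, with blue below and red above the GFP mean and genes ordered from the lowest to the highest ratio of PANX1 replicate 3 to the mean of replicates 1 and 2. The PANX1 3 column is paler than PANX1 1 and 2 in the top rows, from CAMK4 to IL7R, and far darker in the bottom rows, down to TRAPPC5.

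PANX1 replicate 3 was the library that the choice left aside, but it shares the GFP mean with the other ratios and was among the libraries on which the authors selected the table. Its values are therefore given beside those of the table and without a test. It reached at least 2 times the GFP mean in 116 of the 120 genes (96.7%), against 86.0% of the 1268 genes of the table with a GFP mean above 0. The ratio in replicate 3 had a median of 7.14 on the list, 3.65 in the table and 3.53 in the rest of the table. It was at least 8 in 46 genes of the list and at least 10 in 30, counts that were not made for the table. On the log2 scale the medians of the list were 1.35, 1.33 and 2.84 in PANX1 replicates 1, 2 and 3. The 4 genes under 2 times the GFP mean in replicate 3 were GJA1, EBF2, PREX2 and DCT, the last 3 of which were named after their values were seen. EBF2, a transcription factor of brown fat, was at 0.145, 0.121 and 0.0962 FPKM in GFP and 0.372, 0.353 and 0.214 FPKM in PANX1 libraries. PREX2, an exchange factor for Rac, was at 0.144, 0.191 and 0.174 FPKM and 0.667, 0.646 and 0.328 FPKM, and DCT, an enzyme of melanin synthesis, at 0.283, 0.187 and 0.358 FPKM and 0.845, 1.06 and 0.534 FPKM. In all 4 genes replicate 3 was the lowest PANX1 library and still above the GFP libraries.

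Every PANX1 library lay above every GFP library in 119 of the 120 genes, against 82.0% of the table. The exception, named after its values were seen, was TRAPPC6A, a subunit of the TRAPP vesicle-tethering complex. It was at 0.199, 1.04 and 2.78 FPKM in GFP and 2.73, 6.18 and 7.46 FPKM in PANX1 replicates 1 to 3, and its PANX1 replicate 1 lay just under GFP replicate 3. The list was selected on 5 of these 6 libraries, so nothing is read from that count. With limma on log2(FPKM + 1), 96 of the 120 genes were higher at a Benjamini-Hochberg adjusted p under 0.05 over the table, against 33.5% of the table, and here too the choice used the contrast, so nothing is read from the count. It fell to 3, 5 and 26 without GFP replicate 1, 2 or 3 and was 118 without PANX1 replicate 3. It was 0 after median-of-ratios scaling (74 at an unadjusted p under 0.05), whose factors came from this same table of changed genes. It was 0 with limma without a trend in eBayes (81 at an unadjusted p under 0.05) and 8 after a GC correction. Over the role lists as a whole, members or not, limma called 9 of 34 receptors, 2 of 14 secreted signals, 9 of 32 adhesion and matrix genes and 16 of 60 kinases and phosphatases higher, with 0 lower in each. It called 8 of 36 transcription factors higher and 1 lower, 16 of 44 cytoskeleton genes higher and 2 lower, and 41 of 104 numbered names higher and 1 lower. In the other lists none was lower, and 1 of 3 gap junction and pannexin genes, 8 of 16 chromatin, 5 of 23 channel and pump, 10 of 21 cell death, 29 of 83 metabolic, and 4 of 30 replication and repair genes were higher, as were 9 of the 18 entries with a noncoding name. The list itself would hold 79 genes without GFP replicate 1, 135 without GFP replicate 2 and 190 without GFP replicate 3. It would hold 183 genes if only PANX1 replicate 2 had to meet the ratio and 270 if only replicate 1 had to.

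**Figure D3:**
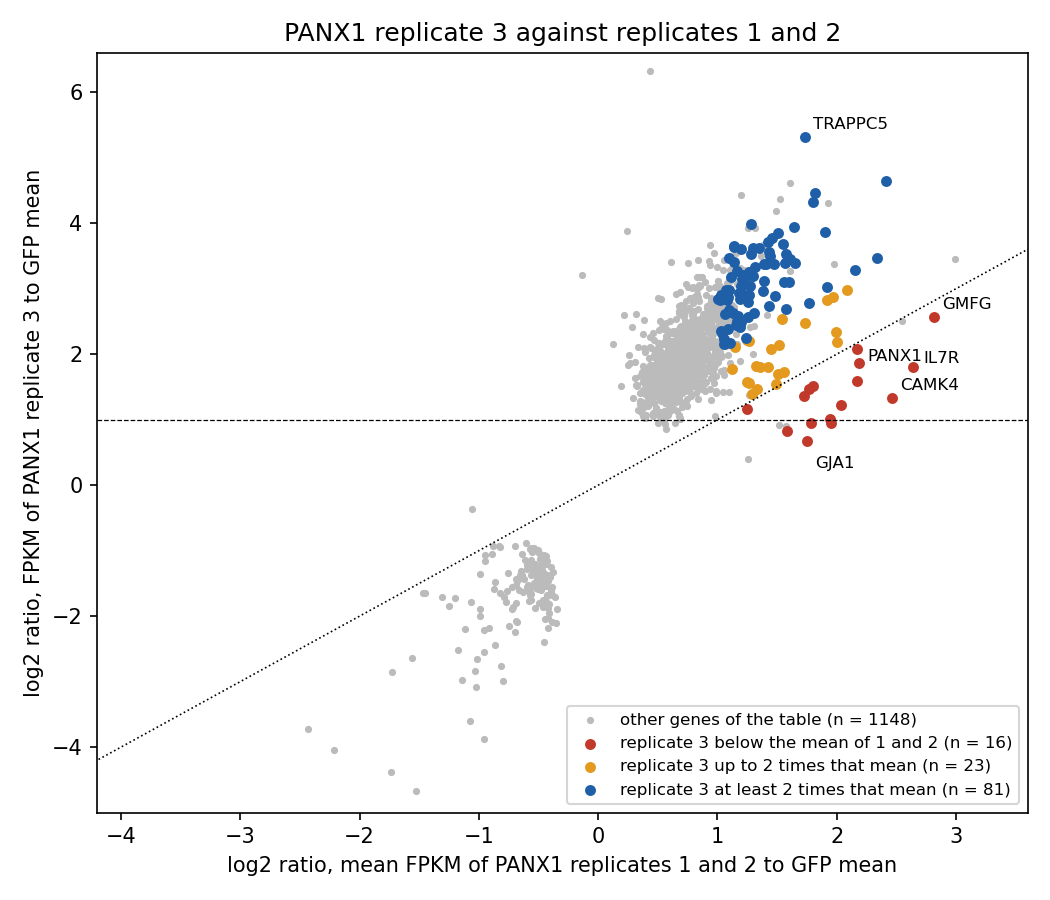
Each gene's log2 ratio of PANX1 replicate 3 to the GFP mean against the log2 ratio of the mean of replicates 1 and 2 to the GFP mean, with grey for the other genes and colour for the list, by the size of replicate 3. The dotted line marks equal ratios and the dashed line 2 times the GFP mean. The 81 blue genes stand well above the dotted line, the 16 red genes, GJA1, IL7R and CAMK4 among them, below it, and the grey genes form 2 clouds, higher and lower than GFP.

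The level in replicate 3 divided the list. It was the highest PANX1 value in 101 genes (84.2%), against 85.0% of the table, lay between the others in 6 and was the lowest in 13. It was at least 2 times the mean of replicates 1 and 2 in 81 genes, between 1 and 2 times that mean in 23, and below it in 16. These counts were not made for the table, where replicate 3 was also high. The median log2 ratio of replicate 3 to the mean of replicates 1 and 2 was 1.45 on the list, 1.17 in the table and 1.15 in the rest of the table. With a median above 1, most genes of the table also had replicate 3 at least 2 times that mean. A high replicate 3 was thus not particular to the list. In the 81 genes the ratio of replicate 3 to the GFP mean ran from 4.48 to 39.8, and the median log2 ratios in replicates 1, 2 and 3 were 1.28, 1.22 and 3.12. TRAPPC5 (XLOC_010541, chromosome 19, 7745707 to 7747748), a subunit of the TRAPP complex like TRAPPC6A, was at 0.545, 0.474 and 1.03 FPKM in GFP and 2.22, 2.31 and 27.2 FPKM in PANX1 libraries, the largest replicate 3 ratio of the list. MIB2, an E3 ubiquitin ligase of the Notch pathway, was at 0.0842, 0.405 and 0.324 FPKM and 0.633, 0.688 and 4.28 FPKM. Both genes had close PANX1 replicates 1 and 2 and a replicate 3 more than 6 times as high. C19orf24 and SBK2 had replicate 3 ratios of 22.0 and 20.0, and MIB2 and PITX3 of 15.8 and 15.3.

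The 16 genes with replicate 3 below the mean of the others were NKAIN1, PANX1, HOXC13, DCT, ATP10A, EFNB3, CACNG4, GMFG, IL1R1, IL7R, CAMK4, ST8SIA4, EDN1, GJA1, PREX2 and EBF2, some of them named after their values were seen. Their median log2 ratios were 1.75, 2.07 and 1.34 in replicates 1, 2 and 3. NKAIN1, which binds a sodium pump subunit, was at 0.139, 0.263 and 0.251 FPKM in GFP and 0.984, 0.983 and 0.919 FPKM in PANX1 libraries. ST8SIA4, a polysialic acid synthase, was at 0.0866, 0.122 and 0.0799 FPKM and 0.217, 0.572 and 0.226 FPKM. NKAIN1 was nearly the same in the 3 PANX1 libraries, while ST8SIA4 was high in replicate 2 alone. Among genes with a mean of at least 1 FPKM in a group, low replicate 3 ratios included 2.23 for CACNG4, 2.78 for ATP10A, 3.50 for UAP1L1 and 3.53 for TMEM161B-AS1. UAP1L1 was at 0.386, 0.439 and 0.631 FPKM in GFP and 1.29, 1.21 and 1.70 FPKM in PANX1 libraries.

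Sequence and level differed along the same division. Transcript GC content was known for all 120 genes, with a median of 62.1%, against 61.0% in the table and 49.1% over annotated protein-coding genes. The median was 44.8% in the 16 genes with a low replicate 3 (36.9% to 59.4%), 59.2% in the 23 between (37.2% to 66.2%) and 64.1% in the 81 with a high replicate 3 (44.5% to 73.0%). The median transcript length was 4084, 3692 and 1647 bases, and the median GFP mean 0.188, 0.187 and 1.45 FPKM, in the same order. Across the 120 genes, which share the 6 libraries and are not independent, the log2 ratio of replicate 3 to the mean of replicates 1 and 2 correlated by rank with GC content (Spearman's rho 0.60), with transcript length (-0.45) and with the GFP mean (0.45). Over the rest of the table the first 2 were 0.66 and -0.35, and the third had the opposite sign, -0.39. The rule set replicates 1 and 2 against the GFP mean, and both enter the third correlation. Its sign on the list therefore cannot be told apart from the choice. The part that base composition, length or level had in replicate 3 was not tested.

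**Figure D4:**
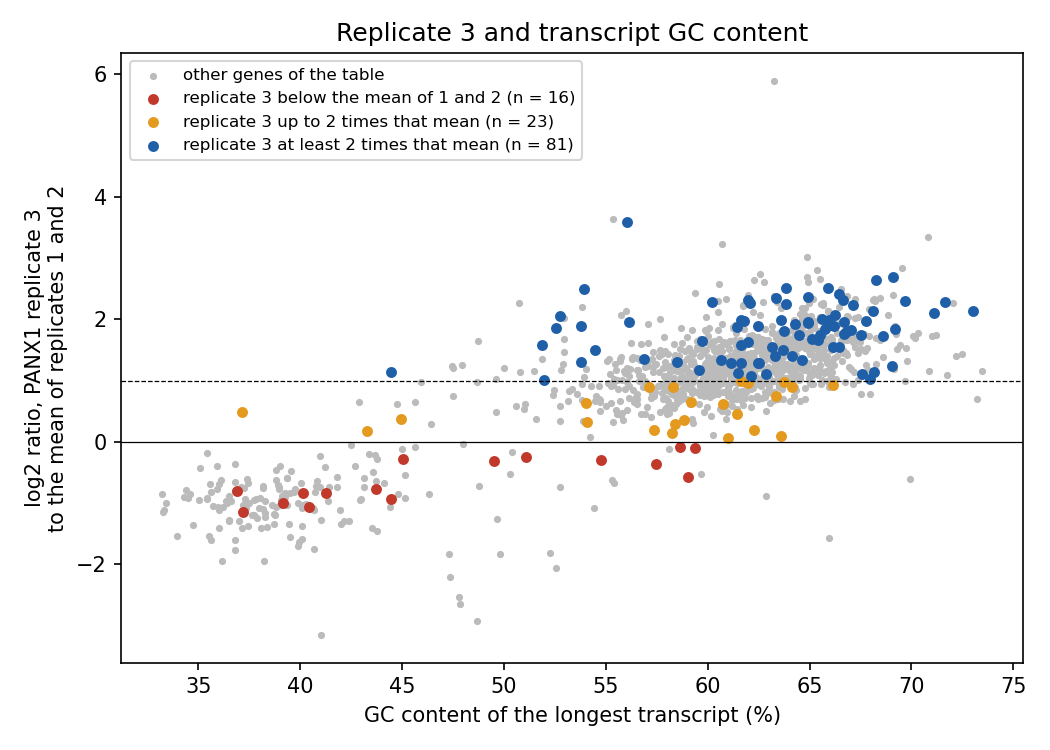
The log2 ratio of PANX1 replicate 3 to the mean of replicates 1 and 2 against the GC content in percent of each gene's longest transcript, with grey for the other genes of the table and colour for the list. Genes of the list under 45% GC lie mostly below 0, while most of those above 60% lie above the dashed line at 1.

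The GFP libraries were not equal either. The study states unequal read totals for them, and the part of depth in the order below was not tested. GFP replicate 3 was the highest GFP library in 83 genes (69.2%) and GFP replicate 1 the lowest in 79 (65.8%), against 53.0% and 65.7% in the rest of the table. EGFL7 and C19orf24 show this order, whereas IL7R and PANX1 had GFP replicate 1 as the highest. The 2 PANX1 libraries of the rule differed by a median of 0.17 on the log2 scale on the list and 0.24 over the rest of the table, and the rule required both to reach the ratio.

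By position, 20 genes (16.7%) were on chromosome 11 and 19 (15.8%) on chromosome 19, against 8.91% and 17.9% of the table's genes with a GFP mean above 0. The table keeps the names that the list leaves out, so these shares are not directly comparable. Genes that met the ratio but were left out by name included RAB3IL1 on chromosome 11. On chromosome 19 they were ATP5D, NDUFS7, RPS15, RPL36, NDUFA13, ZNF223, NDUFA3, NDUFA11 and NDUFB7. With a gap under 50000 bases, 10 pairs of genes of the list were neighbours. AMH and JSRP1, a gene of the muscle sarcoplasmic reticulum, lay 177 bases apart on opposite strands, and PTPRCAP and CORO1B 364 bases apart on the same strand. PLXNA3 and LAGE3 lay 3255 bases apart on chromosome X. The absolute level differed between these neighbours. PTPRCAP was at 0.514, 0.351 and 2.04 FPKM in PANX1 replicates 1 to 3 and CORO1B at 14.9, 12.1 and 51.3 FPKM. LAGE3 reached 15.8 FPKM in replicate 3 where PLXNA3 was at 0.377 FPKM. The ratio of replicate 3 to the GFP mean was 25.1 and 8.86 for PTPRCAP and CORO1B, and 8.85 and 3.25 for LAGE3 and PLXNA3. These genes were named after their values were seen. In 29 genes of the list (24.2%) the annotation holds another protein-coding gene that overlaps, against 29.2% in the table, and the library kit was not stated to keep the strand. Values of such genes, among them PTPRCAP, LAGE3, TMEM134, APBA3, GGT1, PDLIM2, TRAPPC5 and C9orf16, and the antisense TMEM161B-AS1, may include fragments of the partner. Near-identical copies are also uncertain, which concerns DGCR6 and DGCR6L, WASH7P and WASH3P, GSTT2 and GGT1.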

How the data were processed

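RNA was measured in 6 libraries of Rh30 cells, 3 PANX1 and 3 GFP. The authors aligned poly(A) TruSeq reads to hg19 with TopHat 2.0.13 and Bowtie2 2.2.3 and estimated FPKM with Cufflinks 2.2.1, and the deposited table holds FPKM for 1273 genes, those the authors had called changed on these same libraries. The study states the reads sequenced for each library, but the FPKM keep no fragment counts per gene, so no counting interval is given and the precision rests on the replicates.

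Libraries were grouped by their titles. The genes of the list, the gene lists and the tests were chosen with earlier results of these data known. Genes were picked on linear FPKM without a pseudocount. Role lists were name patterns, 2 of which were corrected once the table was seen. The named genes were PANX1 and GJA1, the 10 with the largest smaller ratio and the 5 lowest and 5 highest in PANX1 replicate 3 (all with a group mean of at least 1 FPKM), the 5 highest GFP means, 3 on either side of the limit, and up to 4 for each role list; some of these genes are not reported here. Counts over the table used limma 3.58.1 in R 4.3.3 (eBayes with a trend) on log2(FPKM + 1), tested on simulated data, and the pseudocount of 1 understates changes of low genes. Transcript GC content and length came from GENCODE v44lift37 on hg19, promoters from RefSeq on GRCh38.p14, joined by symbol with no coordinates converted. Python 3.11.15 with pandas 2.3.3, scipy 1.17.1 and matplotlib 3.10.9 gave the summaries and figures. Alternatives were other GFP summaries, pseudocounts, a minimum level, median-of-ratios scaling, a GC correction, replicate blocks and leaving out each library.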

Additional observations from a re-analysis of the deposited data

How the results depend on the processing

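The list would hold 41 genes with the highest GFP library in place of the mean, of which 85.4% were at least doubled in PANX1 replicate 3. It would hold 79 with a pseudocount of 0.1 and 76 with a mean of at least 1 FPKM, where the doubled share was 100%. Median-of-ratios scaling took the table's median log2 ratio of means from 1.23 to 0.041 and left 18 genes, a doubled share of 38.9% and a median log2 ratio of 0.60 in replicate 3. All 18 were among the 120. The scaling factors came from this table of changed genes alone, where 82.0% had every PANX1 library above every GFP library. Such scaling sets the table's median near 0 by construction, so nothing is read from the counts after it. With 1 library left out in turn the list held 79 to 270 genes, the doubled share was 93.7% to 98.9% and the median log2 ratio in replicate 3 was 2.44 to 2.89.

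With limma, 96 genes of the list were called. Limma called 63 with a mean of at least 1 FPKM (76 tested), 8 after the GC correction, 27 after the GC correction with a replicate block, and 3 to 118 with 1 library left out. It called 0 without a trend in eBayes (81 at an unadjusted p under 0.05) and 0 after median-of-ratios scaling (74 at an unadjusted p under 0.05). The title numbers as a replicate block gave 95, and the culture numbers 117. By culture number, GFP replicate 1 and PANX1 replicate 3 each stand alone in a block and add nothing to the contrast. The count of 117 therefore rests on GFP replicates 2 and 3 and PANX1 replicates 1 and 2. Across genes, the deviations of libraries sharing title number 1, 2 or 3 correlated at 0.42, -0.36 and 0.14. For culture numbers 2 and 3 the correlations were -0.0061 and 0.053. The deviations were taken from each group's mean and sum to 0 within a group, so these values cannot settle which samples are paired. The main fit treated the samples as unpaired. The methods speak of matching replicates without saying which numbering matches them. Apart from the centring by median-of-ratios scaling, the cause of these shifts was not tested. For the 59 named genes, 464 of 590 log2 ratios of means under 10 alternatives moved by less than the spread of the PANX1 libraries, 126 moved by more and 0 changed sign. That spread is wide where replicate 3 stands apart, so large shifts can count among the 464. The log2 ratio of MIB2 went from 2.78 to 1.29 without PANX1 replicate 3 and was counted there. The 464 are therefore not read as stable values. All 120 genes of the list kept a log2 ratio of means above 0 under each of the 10, and 44 kept at least 1 after median-of-ratios scaling. Genes whose groups do not overlap, 119 of the 120, could change sign only under the scaling. Nothing is read from the signs kept under the other alternatives. FPKM below 1, the level of 68 genes in GFP, cannot be given a counting error here.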

Other observations

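The rule passes over 5 genes that were listed at 0 in all GFP libraries, for which no ratio can be given. TPGS1, a subunit of tubulin polyglutamylase, was listed at 0.131, 0.108 and 0.451 FPKM in PANX1 replicates 1, 2 and 3. SCGB2B2 was listed at 0.537, 0.297 and 0.0840 FPKM, and it was the only one of the 5 with its lowest value in replicate 3. RNF208 was at 0.111, 0.185 and 0.634 FPKM. The histone genes HIST1H2AH and HIST1H4B were each listed at 0 in 1 PANX1 library too, HIST1H2AH with 0.285, 0 and 1.32 FPKM and HIST1H4B with 0, 0.300 and 4.50 FPKM. Their values were seen before they were named.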
